A study of Rattus norvegicus with 8 samples.

Results

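The genes described here encode 9 enzymes that carry cholesterol synthesis through mevalonate and squalene to lanosterol: Hmgcs1, Mvk, Pmvk, Mvd, Idi1, Fdps, Fdft1, Sqle and Lss. They were taken by symbol, in the order of their reactions, from a count table of 16871 genes. All 9 were found, and all 9 passed the filter on low counts. The measurement is BrU-seq, which reads newly made RNA, in primary co-cultures of cortical and hippocampal neurons from P1-P2 Sprague Dawley rats. Living cells build the nucleoside analogue bromouridine (BrU) into new transcripts, which are then captured for sequencing. TT cultures received 1 µM tetrodotoxin (TTX, a toxin that stops neuronal firing by blocking sodium channels) for 24 h, starting on day 14 in culture, then a 48 h washout, and TTX again for 4 h on day 17. HT cultures received vehicle (water) first and TTX as the second treatment, TH cultures TTX first and vehicle second, and HH cultures vehicle both times. BrU at 2 mM was present for the last 30 min in every culture. Each group has 2 libraries. The sample titles name hippocampal neurons alone, whereas the protocol describes tissue from both regions. Whether replicates came from separate cultures is not given, and the p-values below therefore speak only of how far these libraries spread, which may be a technical matter.

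The mevalonate pathway builds isoprene units from acetyl-CoA. Some units go to prenyl groups, dolichol and ubiquinone, and the rest are joined into squalene, which is closed into lanosterol, the first sterol. In most cells the genes are controlled together by the transcription factor SREBP-2, which is released from the endoplasmic reticulum when membrane cholesterol is low. The brain makes its own cholesterol, because lipoproteins of the blood do not cross the blood-brain barrier, and astrocytes and myelinating oligodendrocytes are major producers.

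Total counts per library lay between 3489176 and 4959887, and levels are given as CPM, read counts relative to library totals that were adjusted by edgeR's TMM method. No gene of the 11372 tested passed an adjusted p of 0.05 in any comparison made here (edgeR; 0% called in each), so no member passed either. The members are therefore read by their levels, and by how many reach an unadjusted p under 0.05 set beside the same share over all genes tested. All 7 excitatory neuron markers were detected, with summed levels between 915 and 1247 CPM. HH replicate 1 stood apart: its 10 activity-response genes (Fos, Npas4 and Arc among them) summed to 1360 CPM, against 396 to 573 CPM in the other 7 libraries.

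Nascent RNA of the pathway stood lower in the cultures given the second TTX, whatever their history. The 9 members summed to 333 and 380 CPM in TT and to 442 and 339 CPM in HT, against 491 and 470 CPM in TH and 650 and 521 CPM in HH. No library with the second TTX reached the level of a library with vehicle. Averaged over both histories, the log2 change was negative for all 9 members, with a median of -0.46. Over all genes tested the median was -0.0011 and 50.3% lay below 0. Of the 9, 6 reached an unadjusted p under 0.05 as lower (Hmgcs1, Mvd, Idi1, Fdps, Fdft1 and Sqle), against 2.59% of all genes tested. The members were chosen with earlier results of these data known, so the comparison with that share is a description only. These cultures mix cell types, so that less new RNA per cell and fewer cells of a producing type cannot be told apart.

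In Hmgcs1, Idi1 and Sqle all 4 libraries with the second TTX lay below all 4 with vehicle, a pattern found in 1.64% of the genes tested. For Idi1 the nearest levels were 23.5 CPM in HT replicate 1 and 23.7 CPM in TH replicate 2. For Sqle they were 41.6 CPM in TT replicate 2 and 41.7 CPM in HH replicate 2. These gaps are far smaller than the gaps between replicates, and with library totals as the only scaling 2 members rather than 3 kept the arms apart. With HH replicate 1 and HT replicate 1 both left out, the same 3 members kept them apart in a count added after seeing the data, against 5.41% of all genes.

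The promoters of Hmgcs1 and Idi1, which had the largest differences, and of Lss, which had one of the smallest, are shown for comparison. RefSeq's promoter table (build GRCr8, other than the rn6 build of the counts) holds 6 of the 9 members: Hmgcs1, Mvk, Mvd, Idi1, Fdps and Lss. Each is a window of 300 bases around the start of transcription, printed 5′ to 3′ on the gene's strand. Capitals mark the CCAAT box, the binding motif of the factor NF-Y, a known partner of SREBP at sterol genes, as CCAAT or as its reverse complement ATTGG.
Hmgcs1 (chr2:53382054-53382353, + strand): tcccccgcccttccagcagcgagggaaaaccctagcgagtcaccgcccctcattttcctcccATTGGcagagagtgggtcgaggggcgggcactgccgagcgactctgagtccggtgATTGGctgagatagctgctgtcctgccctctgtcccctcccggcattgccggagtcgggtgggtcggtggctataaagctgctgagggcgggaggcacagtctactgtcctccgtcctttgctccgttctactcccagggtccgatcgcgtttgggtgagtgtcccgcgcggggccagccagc
Idi1 (chr17:66547475-66547774, - strand): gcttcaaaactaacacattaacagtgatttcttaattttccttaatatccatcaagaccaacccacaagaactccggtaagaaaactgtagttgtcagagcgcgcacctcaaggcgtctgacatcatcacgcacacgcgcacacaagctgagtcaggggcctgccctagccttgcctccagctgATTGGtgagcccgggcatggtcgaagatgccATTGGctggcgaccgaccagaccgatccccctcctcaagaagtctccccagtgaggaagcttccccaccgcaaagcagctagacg
Lss (chr20:12118181-12118480, - strand): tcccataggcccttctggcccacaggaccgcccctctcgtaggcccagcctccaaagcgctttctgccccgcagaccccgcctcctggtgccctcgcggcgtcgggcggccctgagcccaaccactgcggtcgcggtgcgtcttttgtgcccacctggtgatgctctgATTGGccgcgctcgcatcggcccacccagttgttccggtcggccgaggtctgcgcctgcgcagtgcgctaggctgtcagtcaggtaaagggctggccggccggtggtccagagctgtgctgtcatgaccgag

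On either strand, all 6 windows held a CCAAT box, against 37.5% of the 33469 windows in the table. Hmgcs1, Idi1, Mvd and Fdps had 2 each and Lss had 1. Mvk, whose difference was within its replicate gaps, had 5, and its 4 in the ATTGG direction began at positions -173, -120, -67 and -14 from the start. The GC box GGGCGG, bound by Sp1, was in 5 of the 6, all but Idi1, against 33.1% of windows. One spelling of the sterol regulatory element, TCACNCCAC, was in 0 of the 6 and in 1.12% of all windows. No CCAAT box overlapped a GC box in these windows, and a match is a description of the sequence only.

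HMG-CoA synthase, encoded by Hmgcs1, condenses acetyl-CoA with acetoacetyl-CoA at the entry of the pathway. Its nascent level was 123 and 105 CPM in TT and 152 and 123 CPM in HT, against 189 and 161 CPM in TH and 247 and 200 CPM in HH. The groups did not overlap within either history, and the group means ran TT, HT, TH, HH from low to high. Averaged over history the log2 change was -0.66 ± 0.11 (± SE; fold 0.633; edgeR adjusted p = 0.192), and Hmgcs1 had the 5th smallest p of the 11372 genes. It rests on 437 to 802 counts per library. DESeq2 called it (adjusted p = 0.00883), as did edgeR without a low-count filter (adjusted p = 0.0176). Its log2 change was -0.74 without HH replicate 2, when HH replicate 1 stands alone for its group, and -0.58 without HH replicate 1. Over all 16 alternatives its edgeR, DESeq2 or limma-voom adjusted p ran from 0.00883 to 0.709.

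Mevalonate kinase (Mvk) and phosphomevalonate kinase (Pmvk) add the phosphates to mevalonate, and for both the groups differed by less than some replicate pairs. Mvk stood at 6.98 and 12.7 CPM in TT and 11.1 and 7.02 CPM in HT, against 13.0 and 12.7 CPM in TH and 10.8 and 10.95 CPM in HH. The replicates with the second TTX were far apart, and the counts behind them were low, from 25 to 64. Its log2 change was -0.31 ± 0.22 averaged over history (edgeR adjusted p = 0.836). It was -0.13 without TT replicate 1, -0.16 without HT replicate 2, -0.49 without HT replicate 1 and -0.57 without TT replicate 2. Pmvk stood at 17.4 and 20.1 CPM in TT and 16.3 and 15.2 CPM in HT, against 14.4 and 22.5 CPM in TH and 22.2 and 21.4 CPM in HH. TH replicate 1 held the lowest and TH replicate 2 the highest level of Pmvk among the 8 libraries. Its log2 change was -0.23 ± 0.16 (edgeR adjusted p = 0.832), and without TH replicate 2 it was -0.039.

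Mevalonate diphosphate decarboxylase (Mvd) makes isopentenyl diphosphate, and the isomerase Idi1 turns it into the dimethylallyl form that starts chain building. Mvd stood at 8.97 and 14.1 CPM in TT and 15.0 and 14.9 CPM in HT, against 18.5 and 13.8 CPM in TH and 21.3 and 22.4 CPM in HH. HT lay below HH, whereas TT and TH overlapped. Averaged over history, Mvd's log2 change was -0.50 ± 0.17 (edgeR adjusted p = 0.537). Idi1 stood at 18.7 and 18.1 CPM in TT and 23.5 and 19.7 CPM in HT, against 29.8 and 23.7 CPM in TH and 50.9 and 29.2 CPM in HH. HH replicate 1 was 1.74 times HH replicate 2 for Idi1, the widest gap of the HH pair among the members. The log2 change of Idi1 was the largest of the 9, -0.70 ± 0.18 (fold 0.614; edgeR adjusted p = 0.297), and it was -0.48 without HH replicate 1. In RefSeq's annotation of GRCr8, Hmgcs1 and Fdft1 each overlap a long non-coding RNA gene, and Idi1 overlaps Wdr37, whose log2 change was -0.013 ± 0.10 (edgeR adjusted p = 0.989) at 164 to 209 CPM. The strand setting of the counting is not known, so reads of overlapping genes may not have been told apart.

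Farnesyl diphosphate synthase (Fdps) joins the units into farnesyl diphosphate, the branch point towards prenylated proteins and sterols. Fdps stood at 23.9 and 40.6 CPM in TT and 45.5 and 34.0 CPM in HT, against 49.7 and 38.7 CPM in TH and 51.2 and 49.3 CPM in HH. The TT replicates stood far apart, so that TT and TH overlapped. Its log2 change was -0.38 ± 0.17 averaged over history (edgeR adjusted p = 0.718), -0.61 without TT replicate 2 and -0.22 without TT replicate 1. RefSeq lists 5 further rat loci named as copies of Fdps and 1 of Idi1, so that the counts of these genes are uncertain where reads were shared. Squalene synthase (Fdft1) joins farnesyl units and commits them to sterols. Fdft1 stood at 55.8 and 87.8 CPM in TT and 86.4 and 58.4 CPM in HT, against 81.2 and 101 CPM in TH and 122 and 93.9 CPM in HH. One replicate of each TTX group stood near the vehicle levels and the other well below them. Fdft1's log2 change was -0.46 ± 0.18 (edgeR adjusted p = 0.668).

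Squalene epoxidase (Sqle) adds the oxygen of the future sterol and is a second control point of the pathway. Sqle stood at 30.6 and 41.6 CPM in TT and 40.1 and 31.7 CPM in HT, against 49.2 and 51.8 CPM in TH and 60.1 and 41.7 CPM in HH. HH replicate 1 and both TH libraries stood highest. The log2 change was -0.50 ± 0.21 for HT against HH, -0.48 ± 0.20 for TT against TH and -0.49 ± 0.15 on average (edgeR adjusted p = 0.415). For HT against HH it was -0.21 without HH replicate 1 and -0.74 without HH replicate 2, and for TT against TH -0.28 without TT replicate 1 and -0.72 without TT replicate 2. Lanosterol synthase (Lss) closes the rings of squalene epoxide into lanosterol. Lss stood at 47.1 and 40.0 CPM in TT and 51.5 and 35.1 CPM in HT, against 46.1 and 44.5 CPM in TH and 63.8 and 52.4 CPM in HH. HH lay above every other library for Lss, and TT replicate 1 lay above both TH libraries. Its log2 change was -0.24 ± 0.13 averaged over history (edgeR adjusted p = 0.774), -0.12 without HT replicate 2 and -0.39 without HT replicate 1.

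**Figure D1:**
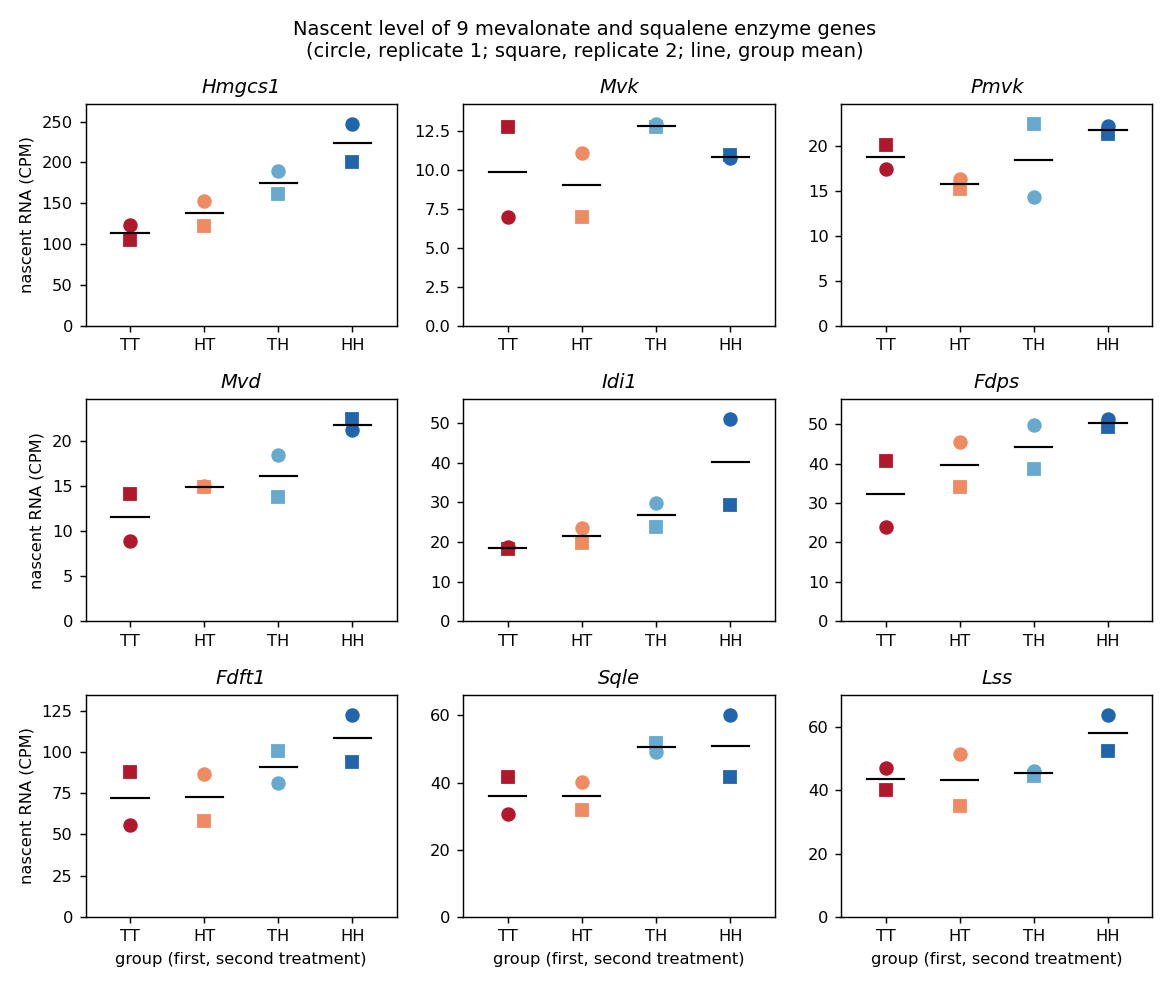
Nascent level (CPM, linear axes from 0) of each member in the 8 libraries, by group; circles are replicate 1, squares replicate 2 and lines group means (n = 2). Hmgcs1 runs between 105 and 152 CPM in the TTX libraries and between 161 and 247 CPM in the vehicle libraries without overlap, whereas Mvk and Pmvk overlap.

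The second TTX without earlier silencing is the comparison of HT with HH. The median log2 change of the 9 members was -0.50, all of them negative, against 0.00071 over all genes tested. Both HT libraries lay below both HH libraries in 8 of the 9, all but Mvk, against 16.7% of all genes tested. Of the 9, 5 reached an unadjusted p under 0.05 as lower, against 2.73% of all genes. Hmgcs1 stood at -0.70 ± 0.16 (edgeR adjusted p = 0.519), Idi1 at -0.88 ± 0.25 (edgeR adjusted p = 0.637) and Mvd at -0.55 ± 0.24 (edgeR adjusted p = 0.754). Sqle and Lss, the other 2, stood at -0.50 ± 0.21 and -0.42 ± 0.19, and the remaining members between -0.57 for Fdft1 and -0.25 for Mvk. Lss was -0.17 without HT replicate 2 and -0.72 without HT replicate 1, and Fdft1 -0.32 and -0.89 without the same libraries. Without HH replicate 1 the median was -0.37, and Idi1 stood at -0.43, under 0.5 times its full value. Without HH replicate 2, when HH replicate 1 stands alone for its group, Idi1 stood at -1.24 and passed (edgeR adjusted p = 0.0333).

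In cultures silenced before, the comparison is TT against TH. The median log2 change was -0.43, negative in 8 of the 9 members, against 0.0040 over all genes tested, and Pmvk stood at 0.013 ± 0.22. Both TT libraries lay below both TH libraries in 4 members, Hmgcs1, Mvk, Idi1 and Sqle, against 14.1% of all genes, and for Mvk the levels of TT replicate 2 and TH replicate 2 were nearly equal. Hmgcs1 at -0.62 ± 0.16 and Sqle at -0.48 ± 0.20 reached an unadjusted p under 0.05, 2 of 9 against 0.923% of all genes tested as lower, and neither passed (edgeR adjusted p = 1.00 for each). The order of the libraries held in both histories for Hmgcs1, Idi1 and Sqle, 3 of 9 against 3.12% of all genes. The size depended on the TT replicates, with a median of -0.71 without TT replicate 2 and -0.18 without TT replicate 1.

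The difference between these responses was tested as the interaction, with positive values where TT against TH was less negative than HT against HH. No member passed (edgeR adjusted p = 1.00 for each). The widest estimates were 0.48 ± 0.32 for Pmvk, 0.36 ± 0.26 for Lss and 0.35 ± 0.36 for Idi1. Without single libraries Pmvk ran between 0.21 (without TH replicate 1) and 0.86 (without TH replicate 2), Lss between 0.11 (without HT replicate 2) and 0.67 (without HT replicate 1), and Idi1 between -0.11 (without HH replicate 1) and 0.70 (without HH replicate 2). Hmgcs1 stood at 0.080 ± 0.22 and Sqle at 0.019 ± 0.29, each with an SE larger than the estimate.

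The earlier TTX alone, after a 48 h washout and 4 h of vehicle, is read from TH against HH. The median log2 change was -0.24, negative in 8 of the 9 members, against 0.0011 over all genes tested. Hmgcs1 at -0.35 ± 0.16 and Idi1 at -0.58 ± 0.24 reached an unadjusted p under 0.05, 2 of 9 against 2.02% of all genes as lower, and neither passed (edgeR adjusted p = 0.891 for each). Both values leaned on HH replicate 1: without it Idi1 stood at -0.13 and Hmgcs1 at -0.19, and without HH replicate 2 Idi1 stood at -0.94. The median was -0.17 without HH replicate 1, -0.41 without HH replicate 2 and -0.38 without TH replicate 1. Both TH libraries lay below both HH libraries in Hmgcs1, Mvd and Lss, 3 of 9 against 13.4% of all genes tested. For TT against HT the median was -0.0073, and 0 of 9 reached an unadjusted p under 0.05 as lower, against 1.06% of all genes. Both TT libraries lay below both HT libraries in Mvd and Idi1, 2 of 9 against 16.2%. Averaged over the second treatment, Hmgcs1 (-0.31 ± 0.11), Mvd (-0.40 ± 0.17) and Idi1 (-0.41 ± 0.18) reached an unadjusted p under 0.05 as lower, 3 of 9 against 2.74% of all genes, and none passed (edgeR adjusted p = 0.814 for each). TH against HH and HT against HH share the HH libraries, so that the high levels of HH replicate 1 enter both. Without HH replicate 1 and HT replicate 1 the median of this average was 0.047, Idi1 stood at -0.12, Hmgcs1 at -0.15 and Mvd at -0.42, with HT and HH each a lone library assumed to vary like the other groups.

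**Figure D2:**
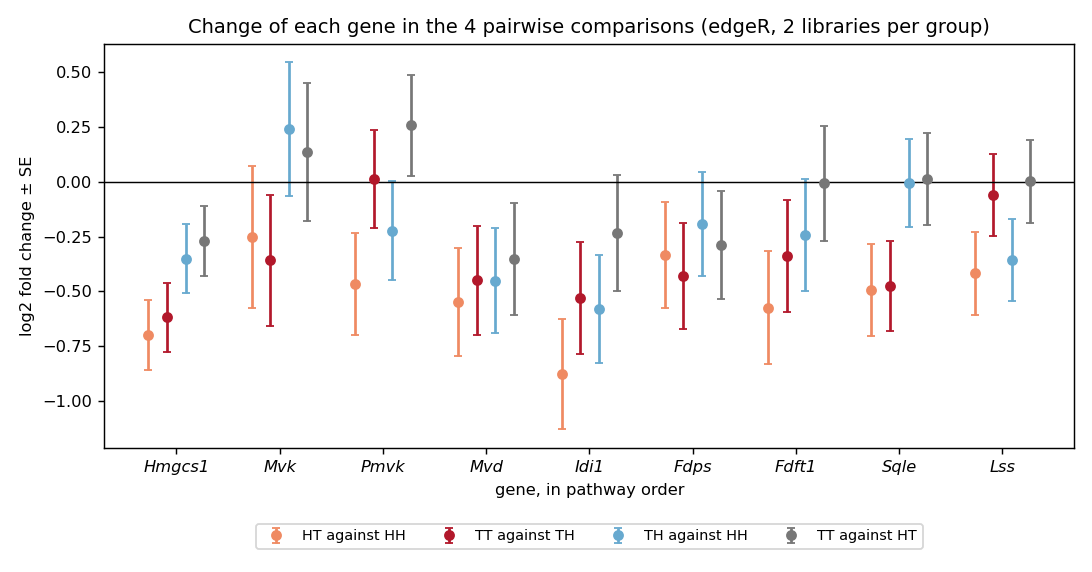
Log2 fold change (points) with its SE (bars) of each member, in pathway order, in the 4 pairwise comparisons. In HT against HH all 9 points lie below 0, between -0.88 and -0.25; in TT against HT they scatter around 0, between -0.35 and 0.26.

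The members differed in how closely their levels varied together over the 8 libraries. Among the 36 pairs, Pearson's r of log2 CPM ran from 0.19 to 0.95 with a median of 0.69, as a description across libraries that share the same groups. The closest pairs were Hmgcs1 with Idi1 (0.95), Fdft1 with Sqle (0.92) and Mvd with Fdps (0.92). Against the mean of the other 8 members, Fdft1 was closest (0.91) and Pmvk farthest (0.43), with Mvk at 0.61. Hmgcs1 held 33.8 ± 4.26% of the members' counts in the 4 libraries with the second TTX and 37.3 ± 1.98% in the 4 with vehicle (SD, n = 4 each), ranges that overlap. TT replicate 2 held the lowest share of Hmgcs1, 27.6%, and the highest of Fdft1, 23.1%. Lss held 11.7 ± 1.75% with the second TTX and 9.69 ± 0.308% with vehicle.

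Acat2, which makes the acetoacetyl-CoA used by HMG-CoA synthase, lay in the same direction and stood at -0.41 ± 0.15 averaged over history (edgeR adjusted p = 0.586).

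For the second TTX averaged over history, 9 of the 10 sterol enzymes after lanosterol lay below 0, against 50.3% of all genes tested. Their median was -0.42, and 4 reached an unadjusted p under 0.05, all lower, against 2.59% of all genes tested as lower. Among the 4 were Msmo1 (-0.52 ± 0.12), Cyp51 (-0.67 ± 0.19) and Tm7sf2 (-0.74 ± 0.25). None of the 10 passed (edgeR adjusted p = 0.280 or more). Tm7sf2 had low mean levels of 3.74 CPM with the second TTX and 6.20 CPM with vehicle. The list of sterol control and uptake was mixed: 5 of 11 genes tested among 12 listed lay below 0, with a median of 0.0040. In it 3 genes reached an unadjusted p under 0.05 as lower, against 2.59% of all genes tested. Among the 3 were the sterol carrier Stard4 (-0.95 ± 0.23) and the sterol sensor Insig1 (-0.69 ± 0.18). Mean levels of Stard4 were low, 6.79 CPM with the second TTX and 13.1 CPM with vehicle. Srebf1, which encodes the lipid regulator SREBP-1, reached an unadjusted p under 0.05 as higher (0.43 ± 0.12). Over all 11372 genes tested, 495 reached it as higher. The gene of SREBP-2 itself, Srebf2, stood at -0.14 ± 0.092. None of the genes named here passed (edgeR adjusted p = 0.293 or more).

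Enzymes that draw isoprene units away from sterols lay around 0. Of 12 genes tested among 15 listed for prenylation, dolichol, ubiquinone and related steps, 6 lay below 0, and the median was 0.0028. Of the 12, 0 reached an unadjusted p under 0.05 in either direction, against 789 of the 11372 genes tested. Ggps1, which extends farnesyl to geranylgeranyl diphosphate, stood at 0.082 ± 0.091 (edgeR adjusted p = 0.905). Nus1 and Dhdds, the subunits of the dolichol-forming prenyltransferase, stood at -0.086 ± 0.100 and 0.089 ± 0.12. The difference between these lists was not tested.

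**Figure D3:**
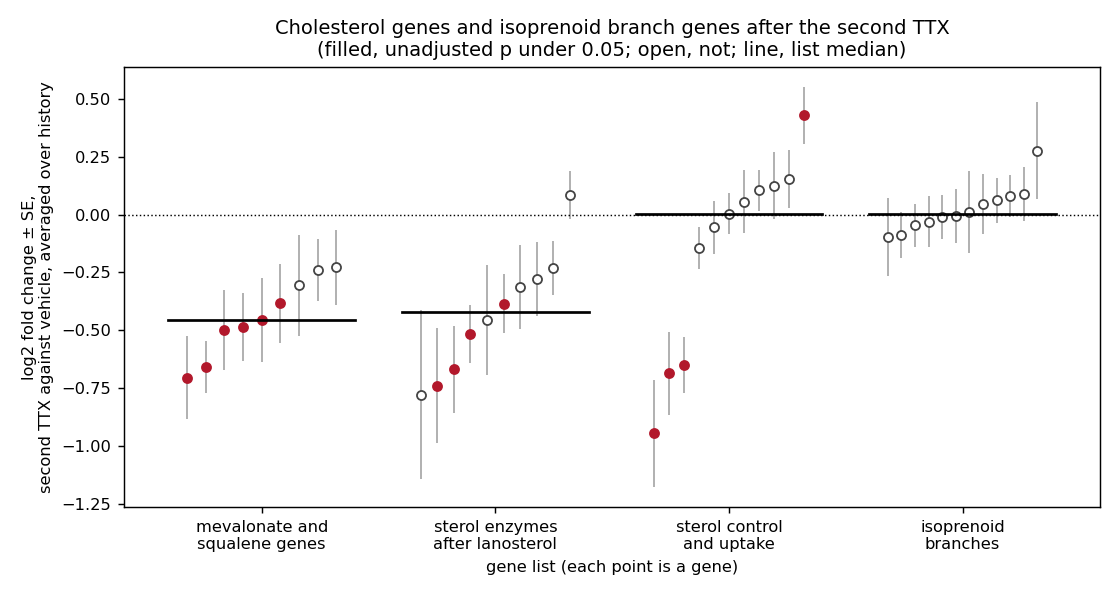
Log2 fold change with SE of each tested gene for the second TTX against vehicle, averaged over history, by gene list; filled points have an unadjusted p under 0.05 and horizontal lines are list medians. The mevalonate and squalene genes and the sterol enzymes after lanosterol lie mostly below 0 (medians -0.46 and -0.42), the isoprenoid branch genes around it (median 0.0028).

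Cell markers also differed with the second TTX, and their part in the result was not tested. Their directions are those of the log2 change averaged over history, in which 50.3% of all genes tested lay below 0. The 6 dividing-cell genes summed to 150 to 193 CPM in the 4 libraries with the second TTX and to 107 to 127 CPM in the 4 with vehicle, with 6 of 6 above 0. Oligodendrocyte lineage markers, 9 of 10 tested above 0, summed to 730 and 895 CPM in TT and 724 and 784 CPM in HT, against 648 and 696 CPM in TH and 513 and 608 CPM in HH. Astrocyte markers lay above 0 in 8 of 8, with 1667 to 2042 CPM in TT and HT against 1396 to 1757 CPM in TH and HH. Levels with the second TTX and with vehicle did not overlap for the oligodendrocyte list and overlapped for the astrocyte list. Marker levels here are newly made RNA and do not count cells. Inhibitory neuron markers lay below 0 in 5 of 6. They summed to 507 to 616 CPM in TT and HT against 635 to 996 CPM in TH and HH, also without overlap. Excitatory neuron markers had a median log2 change of -0.028, near 0, against -0.19 for the inhibitory list, with 6 of 7 below 0 and overlapping levels of 915 to 1198 CPM in TT and HT against 1037 to 1247 CPM in TH and HH. Fibroblast and pericyte markers summed to at most 25.1 CPM and endothelial markers to at most 90.2 CPM, microglial markers stood lower still, and no marker was at 0 in every library.

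The activity-response genes were set beside the members, and their part in the result was not tested. All 10 lay below 0 averaged over history, against 50.3% of all genes tested, with a median of -0.69. This average includes HH replicate 1 at 1360 CPM. HH replicate 2 at 405 CPM and TH at 396 and 439 CPM overlapped the 412 to 573 CPM of the 4 libraries with the second TTX. No value without HH replicate 1 is given for this list. The 9 members summed to 650 CPM in HH replicate 1 and to 521 CPM in HH replicate 2, so that HH replicate 1 stood highest in both lists. HH replicate 1 held the highest level of 6 of the 9 members, and the same share over all genes tested is not given here. Without HH replicate 1 the median change of the members averaged over history was -0.36, with Hmgcs1 at -0.58. With HH replicate 1 and HT replicate 1 left out, the median change of the members averaged over history was -0.50 and all 9 stayed below 0, against -0.46 with all libraries.

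**Figure D4:**
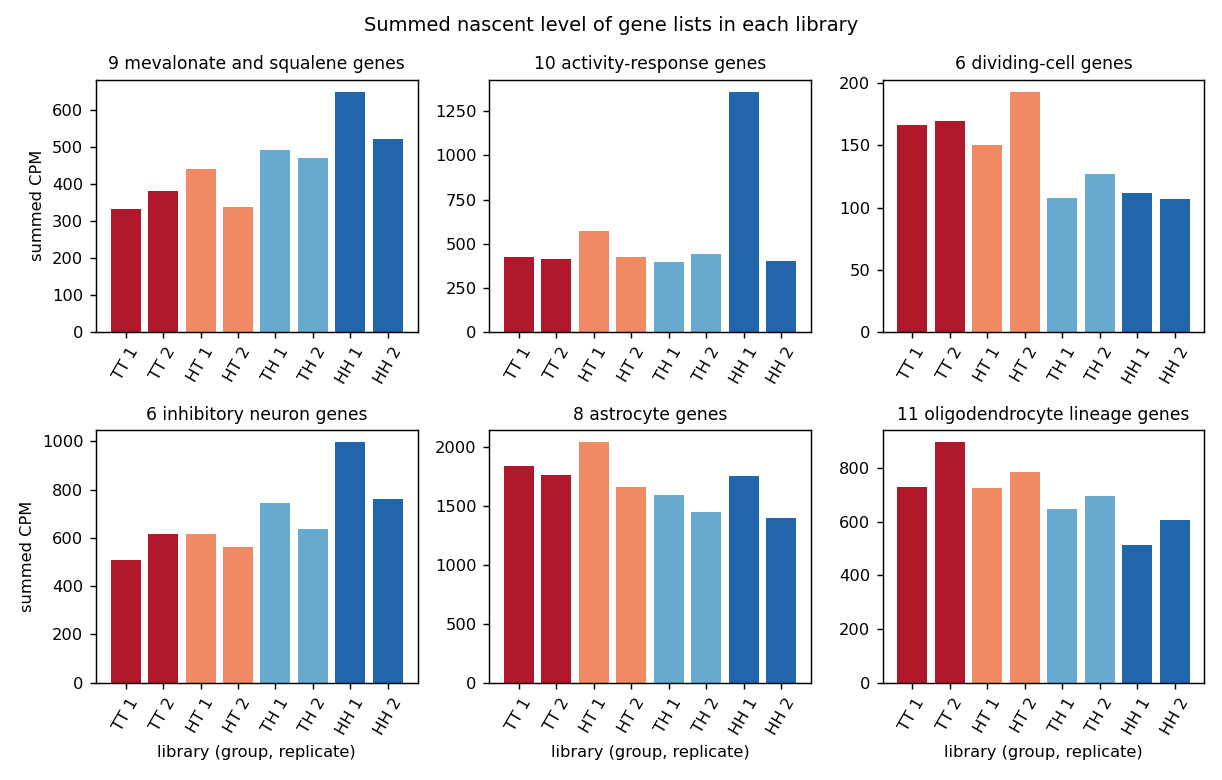
Summed CPM of the 9 members and of 5 marker lists in each library (bars from 0, coloured by group). The members are lower in the TT and HT bars than in the TH and HH bars. The activity-response genes stand out in HH replicate 1, at 1360 CPM, with HT replicate 1 next at 573 CPM.

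The genes whose levels followed the members' mean most closely over the 8 libraries were Insig1 (Pearson's r = 0.98), Cyp51 (0.98), Msmo1 (0.98), Slc15a5 (0.98), Cep41 (0.96) and Rps6ka6 (0.95). The first 3 are sterol genes of the lists above, and the others are in none of them. Slc15a5 and Cep41 had low mean levels of 6.22 and 4.51 CPM. For Hmgcs1 alone the closest were Csnk1g1 (0.97), Tiam1 (0.97) and Ppp2cb (0.97). For Idi1 they were Ppp2cb (0.99), Mtpn (0.99) and Dnajc5 (0.97), and for Sqle Rps6ka6 (0.96), Itga1 (0.96) and Mpg (0.95). With 8 points out of 11372 genes, high values of r are easily reached.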

How the data were processed

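Values are whole-number read counts per gene symbol, deposited by the authors without normalization. FastQC, Bowtie2, TopHat2, featureCounts and the rat build rn6 are named per the submitters' processing notes. Tool versions, the annotation, the strand setting and whether introns were counted: not given in the sources used here. Since new RNA still holds introns, counting exons alone would lose part of it. Columns were tied to the 8 samples through the leading number of each description, and 2 columns that fitted no sample were left unused. The labels name no batch.

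Work was done in R 4.3.3 with edgeR 4.0.16. Low counts were filtered with filterByExpr by group (11372 genes kept, 67.4%) and libraries scaled by TMM. All 8 libraries entered 1 robust quasi-likelihood model of 4 group means, and p-values were adjusted by Benjamini-Hochberg over all genes tested (threshold 0.05). Each SE is the log2 change divided by the root of F. Chi-square tests found replicates of a group to differ beyond sampling noise, so no library's counts repeat those of its partner. The tests cannot tell separate cultures from repeated preparations of 1 culture. Alternatives were other scalings and filters, DESeq2 1.42.0, limma-voom (limma 3.58.1), fits of compared groups alone, a replicate block and left-out libraries. The edgeR step was tested on simulated data with larger changes than those of the members averaged over history and no outlying library. That test does not speak of changes of the members' size. Genes named are all members, up to 4 of each other list by smallest p, and those whose levels correlated most with the members. Results for some listed genes are not reported here. The members and lists were chosen with earlier results of these data known. Motif searches used Python 3.11.15.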

Additional observations from a re-analysis of the deposited data

How the results depend on the processing

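The log2 changes of all 9 members for the second TTX averaged over history stayed below 0 under all 16 alternatives run. Hmgcs1 stood between -0.74 and -0.58. With the replicate numbers as a block (the replicate block), it stood at -0.66 (edgeR adjusted p = 0.0903), Idi1 at -0.69 (edgeR adjusted p = 0.189) and the median of the members at -0.46, and no gene passed in any comparison. Same-numbered deviations from the group means correlated at 0.447 between HT and HH and at -0.0658 to 0.0867 in the other 5 pairs of groups. The main model did not take the numbers to pair the samples, although same-numbered HT and HH libraries varied together in part. The replicate block fits a common effect for all groups and cannot account for a tie of HT and HH alone. With 2 libraries a group, and 25 to 64 counts behind Mvk, differences of single members below the replicate gaps were not detectable at this depth. Fits that leave out a library assume that the lone library of its group varies like the others. For the values below that turned sign or moved, the cause was not tested.

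Without single libraries the number of genes called at an edgeR adjusted p under 0.05 was 0 to 32 for HT against HH, 0 to 1 for TT against TH, 0 to 121 for TH against HH, 0 to 2 for the interaction, 0 to 7 for the second TTX averaged over history and 0 to 100 for the earlier TTX averaged over the second treatment. All of the highest counts but that of TT against TH, which came without TH replicate 2, came without HH replicate 2. For the second TTX averaged over history, 13 genes were called by DESeq2 and 16 by edgeR with no filter on low counts. In HT against HH, leaving out single libraries gave log2 values of -0.63 to 0.032 for Mvk. In TT against TH, leaving out single libraries gave log2 values of -0.18 to 0.056 for Lss, -0.25 to 0.39 for Pmvk and -0.71 to -0.18 for the median of the members. In TH against HH, leaving out single libraries gave log2 values of -0.60 to 0.044 for Pmvk and -0.25 to 0.28 for Sqle. In TT against HT, leaving out single libraries gave log2 values of -0.38 to 0.30 for Fdft1, -0.73 to 0.029 for Fdps, -0.24 to 0.31 for Lss, -0.38 to 0.51 for Mvk, -0.23 to 0.21 for Sqle and -0.26 to 0.19 for the median of the members. In the interaction, leaving out single libraries gave log2 values of -0.13 to 0.55 for Fdft1, -0.54 to 0.22 for Fdps, -0.089 to 0.25 for Hmgcs1, -0.11 to 0.70 for Idi1, -0.28 to 0.37 for Mvd, -0.63 to 0.27 for Mvk, -0.27 to 0.26 for Sqle and -0.13 to 0.27 for the median of the members. In the earlier TTX averaged over the second treatment, leaving out single libraries gave log2 values of -0.31 to 0.031 for Fdft1, -0.072 to 0.38 for Mvk, -0.17 to 0.15 for Pmvk and -0.12 to 0.14 for Sqle.

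With HH replicate 1 and HT replicate 1 both left out, Sqle stood at 0.28 in TH against HH, Fdft1 stood at 0.30 and the median of the members stood at 0.19 in TT against HT, Fdps stood at 0.10, Mvk stood at 0.28 and Sqle stood at -0.087 in the interaction and Fdft1 stood at 0.13, Lss stood at 0.047 and the median of the members stood at 0.047 in the earlier TTX averaged over the second treatment. With library totals alone, Sqle stood at 0.099 in TH against HH, Fdft1 stood at 0.016 in TT against HT and Hmgcs1 stood at -0.0038 and Sqle stood at -0.063 in the interaction. By limma-voom, Sqle stood at 0.025 in TH against HH and Sqle stood at -0.013 in the interaction. With the replicate block, Sqle stood at 0.0024 in TH against HH. With RLE scaling, Lss stood at -0.0017 in TT against HT and Sqle stood at -0.0026 in the earlier TTX averaged over the second treatment. With the groups compared alone, Lss stood at -0.0083 in TT against HT. By DESeq2, Sqle stood at -0.0056 in the earlier TTX averaged over the second treatment.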
